A study of Mus musculus with 8 samples.

Results

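The 6 genes described here, *Cxcl12*, *Kitl*, *Angpt1*, *Lepr*, *Vcam1* and *Foxc1*, are factors of the blood stem cell niche in bone marrow. They were taken by symbol from a table of 15880 genes, and 6 of 6 were found, each with 1 Ensembl identifier. RNA-seq had been done on stroma of newborn mice on postnatal day 1, heterozygous for *Nes-Gfp* on a C57BL/6 background. In these mice GFP is driven by regulatory elements of the nestin gene as a transgene, so GFP reports the transgene and not the endogenous gene. Bones were crushed and digested with collagenase, and cells negative for CD45, CD31 and Ter119 were sorted by GFP and surface Pdgfrα into 4 populations: GFP+ Pdgfrα+, GFP- Pdgfrα+, GFP+ Pdgfrα- and GFP- Pdgfrα-. Each population had 2 libraries, each made from 15000 to 80000 cells pooled from 3 pups. The recovered reads on genes lay between 3221217 and 5302762 per library. A value is a gene's reads plus 0.5 per 1e6 of the library's normalized size. A gene with 3 reads or fewer, a value of 0.825 to 1.04 depending on the library, is called at the floor.

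Blood stem cells are held in the marrow by stromal and endothelial cells that supply them with signals. *Cxcl12* encodes the chemokine that draws and keeps cells carrying the receptor Cxcr4, *Kitl* encodes stem cell factor, the ligand of the receptor kinase Kit, and *Angpt1* encodes angiopoietin-1, the ligand of Tek (Tie2). *Lepr*, the leptin receptor, marks perivascular stroma of adult marrow that makes much of the Cxcl12 and stem cell factor there, *Vcam1* encodes an adhesion molecule that binds the integrins of blood cells, and *Foxc1* encodes a forkhead transcription factor needed to form and maintain the reticular stroma of the niche.

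The sorted populations were first set against the genes of the sort. *Pdgfra* had values of 733 and 754 in GFP+ Pdgfrα+, 839 and 794 in GFP- Pdgfrα+, 18.1 and 10.4 in GFP+ Pdgfrα- and 3.30 and 4.36 in GFP- Pdgfrα- libraries. Endogenous *Nes* had values of 57.6 and 72.0, 27.4 and 47.1, 149 and 176, and 3.59 and 9.08 in the same order. The *Pdgfra* transcript thus followed the sort, whereas *Nes* was not zero in GFP- Pdgfrα+ cells and was highest in GFP+ Pdgfrα- cells. *Ptprc*, which encodes CD45, was at or below 3 reads in both GFP- Pdgfrα+ libraries and had values of 11.3 and 6.72 in GFP- Pdgfrα- cells.

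GFP+ Pdgfrα+ cells had more transcript of all 6 genes than GFP- Pdgfrα- cells (6 of 6 called by limma with the adjusted p-value up to 0.05, where 32.9% of the 15880 genes were called higher and 26.4% lower). Between the Pdgfrα+ populations, 4 of the 6 were called higher in GFP+ cells, where 3.22% of all genes were called higher and 2.13% lower. Without GFP+ Pdgfrα+ replicate 1 or either GFP- Pdgfrα+ library this count was 2, without GFP+ Pdgfrα+ replicate 2 it was 3, and without any 1 of these 4 libraries 246 to 517 of all genes were called, against 849. In GFP+ cells, 5 of the 6 were called higher with Pdgfrα than without it, where 13.1% of all genes were called higher and 11.1% lower. Among Pdgfrα- cells, 5 of the 6 were called higher with GFP, where 30.1% of all genes were called higher and 23.6% lower. That count was 3 in the fit of those 2 populations alone, after quantile normalization or median centring, with voom, and without GFP+ Pdgfrα- replicate 2. Among GFP- cells, 6 of the 6 were called higher with Pdgfrα, where 32.9% of all genes were called higher and 26.8% lower. The 2 single-positive populations split the genes: compared with GFP- Pdgfrα+ cells, GFP+ Pdgfrα- cells had 4 of the 6 lower and 1 higher, where 14.3% of all genes were called lower and 13.5% higher. The comparisons share populations and are not independent of each other. A call in a comparison with GFP- Pdgfrα- cells was thus common for any gene, and 1 between the Pdgfrα+ populations was rare.

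The median difference of the 6 on the log2(value + 1) scale was 1.42 between the Pdgfrα+ populations, against 0.0047 over all genes. It was 2.64 between GFP+ Pdgfrα+ and GFP+ Pdgfrα- cells, against -0.025 over all genes. Against GFP- Pdgfrα- cells it was 3.92 in GFP+ Pdgfrα+, 2.76 in GFP- Pdgfrα+ and 1.51 in GFP+ Pdgfrα- cells, with 0.20, 0.17 and 0.15 over all genes. For 2 libraries against 2 the smallest p-value of an exact permutation test is 0.333, and the limma p-values measure the spread between 2 pools, shared over genes and populations. These are bulk samples, in which fewer cells of a type and less RNA per cell cannot be told apart.

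**Figure D1:**
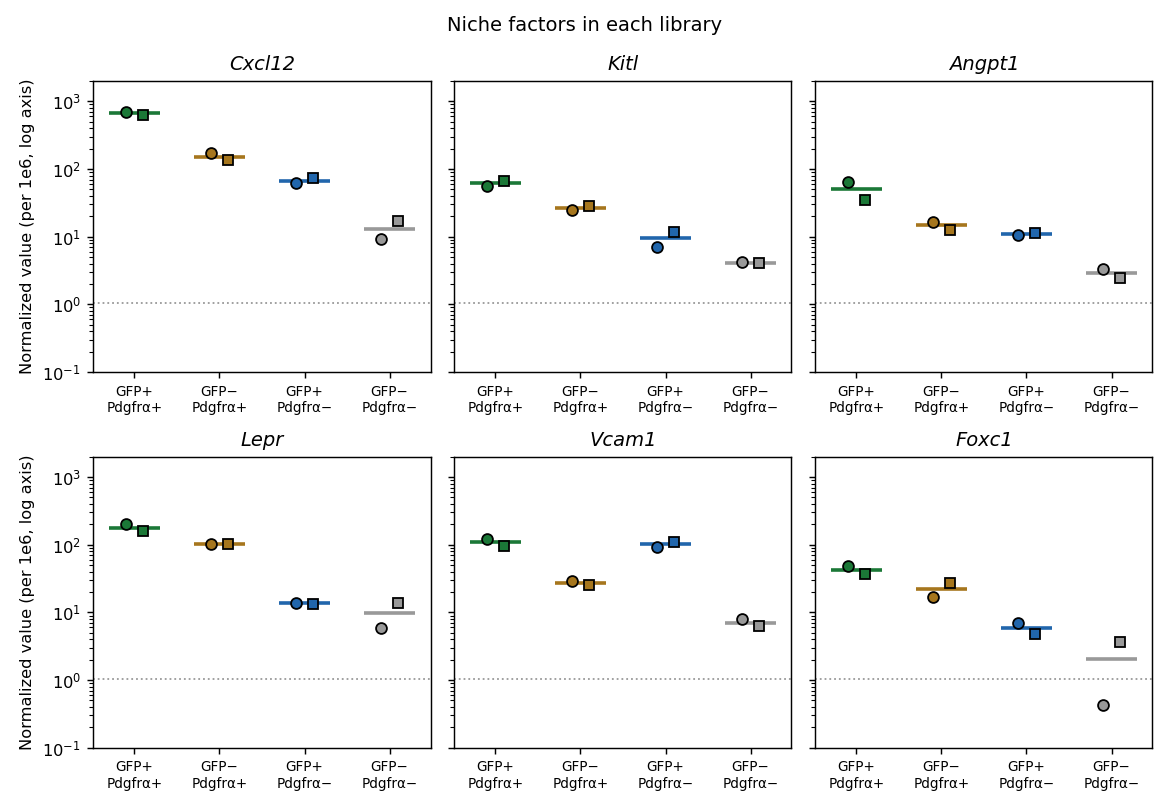
Normalized value of each niche factor (log axis, per 1e6) in the 8 libraries, by sorted population. Circles are replicate 1, squares replicate 2, bars the mean of 2 libraries and the dotted line the highest value that 3 reads take in a library (1.04). *Vcam1* was about as high in GFP+ Pdgfrα- as in GFP+ Pdgfrα+ cells, while the other 5 were highest in GFP+ Pdgfrα+ cells.

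Among the ligands, *Cxcl12* (ENSMUSG00000061353, chromosome 6, 117118553 to 117131385 of NCBIM37, forward strand, 3 exon blocks) had values of 709 and 631 in GFP+ Pdgfrα+, 170.1 and 136 in GFP- Pdgfrα+, 62.0 and 73.4 in GFP+ Pdgfrα- and 9.33 and 17.1 in GFP- Pdgfrα- libraries. The 4 populations formed 4 separate steps, with no overlap between neighbours. The means were 670.3 ± 54.9, 153 ± 23.8, 67.7 ± 8.07 and 13.2 ± 5.49 (SD, n = 2). On the log2(value + 1) scale GFP+ Pdgfrα+ cells were higher than GFP- Pdgfrα+ cells by 2.13 (SE 0.23, limma adjusted p = 0.000275) and higher than GFP+ Pdgfrα- cells by 3.29 (SE 0.23, adjusted p = 1.59e-06). GFP+ Pdgfrα- cells fell by 1.16 below GFP- Pdgfrα+ cells (adjusted p = 0.00251) and stood 2.32 above GFP- Pdgfrα- cells (adjusted p = 3.89e-06). The GFP difference was of like size on both sides of the Pdgfrα split, and the interaction of -0.20 (95% confidence interval -0.91 to 0.51) was not called (adjusted p = 0.659).

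*Kitl* (ENSMUSG00000019966, chromosome 10, 99478264 to 99563047, forward strand, 11 exon blocks) had values of 55.9 and 67.1 in GFP+ Pdgfrα+, 24.6 and 28.1 in GFP- Pdgfrα+, 7.16 and 11.7 in GFP+ Pdgfrα- and 4.16 and 4.13 in GFP- Pdgfrα- libraries. The order of the populations was that of *Cxcl12*, again without overlap, at lower values throughout. The difference between the Pdgfrα+ populations was 1.19 on the log2(value + 1) scale (SE 0.28, limma adjusted p = 0.0291), and that between GFP+ Pdgfrα+ and GFP+ Pdgfrα- cells was 2.61 (SE 0.28, adjusted p = 3.81e-05). The first of these calls was not firm. It was lost without either GFP+ Pdgfrα+ library, without either GFP- Pdgfrα+ library and with a pseudocount of 0.1 (limma adjusted p = 0.0556). The difference between the Pdgfrα+ populations itself ran from 1.06 to 1.32 over 18 alternatives. GFP+ Pdgfrα- cells fell by 1.42 below GFP- Pdgfrα+ cells (adjusted p = 0.00244). They were 0.98 above GFP- Pdgfrα- cells (limma adjusted p = 0.0104), where *Kitl* had 14 and 17 reads. This difference was not called in a fit of those 2 populations alone (adjusted p = 0.0651), after quantile normalization (0.311) or median centring (0.131), with voom (0.0691) or without GFP+ Pdgfrα- replicate 2 (0.107), within a range of 0.00478 to 0.311 over 17 alternatives. The difference itself was 0.37 after quantile normalization, 0.53 after median centring and 0.67 without that library, and ran from 0.37 to 1.304 over the alternatives.

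*Angpt1* (ENSMUSG00000022309, chromosome 15, 42256273 to 42508523, reverse strand, 9 exon blocks) had values of 65.3 and 34.9 in GFP+ Pdgfrα+, 16.8 and 12.6 in GFP- Pdgfrα+, 10.6 and 11.4 in GFP+ Pdgfrα- and 3.30 and 2.48 in GFP- Pdgfrα- libraries. GFP+ Pdgfrα+ cells were again highest, with the widest gap between libraries (50.1 ± 21.5, SD, n = 2). The single-positive populations lay next to each other. GFP+ Pdgfrα+ cells were higher than GFP- Pdgfrα+ cells by 1.65 on the log2(value + 1) scale (SE 0.34, limma adjusted p = 0.0141) and higher than GFP+ Pdgfrα- cells by 2.02 (SE 0.34, adjusted p = 0.00100). The first difference was not called without GFP+ Pdgfrα+ replicate 1, at 1.21, or without GFP- Pdgfrα+ replicate 1 or 2, at 1.84 or 1.46. Over 18 alternatives that difference ran from 1.21 to 2.09. Between the single-positive populations the difference of -0.37 (95% confidence interval -1.11 to 0.36) was not called (limma adjusted p = 0.462). GFP+ Pdgfrα- cells were 1.63 above GFP- Pdgfrα- cells (adjusted p = 0.00136). Exons of *Angpt1* overlap those of *Gm17473* on the opposite strand, and reads of the 2 genes cannot be told apart without strand.

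The receptor gene *Lepr* (ENSMUSG00000057722, chromosome 4, 101390009 to 101487957, forward strand, 22 exon blocks) had values of 201 and 158 in GFP+ Pdgfrα+, 101 and 102 in GFP- Pdgfrα+, 13.7 and 13.5 in GFP+ Pdgfrα- and 5.89 and 13.6 in GFP- Pdgfrα- libraries. The values thus fell into a high pair of Pdgfrα+ populations and a low pair of Pdgfrα- populations, and in the low pair the libraries overlapped. In GFP+ cells the Pdgfrα difference was 3.62 on the log2(value + 1) scale (SE 0.29, limma adjusted p = 4.26e-06), and in GFP- cells it was 3.36 (SE 0.29, adjusted p = 7.88e-07). GFP+ Pdgfrα- cells fell by 2.81 below GFP- Pdgfrα+ cells (adjusted p = 2.12e-05). The GFP difference was 0.80 within Pdgfrα+ cells (95% confidence interval 0.17 to 1.43, limma adjusted p = 0.148) and 0.55 within Pdgfrα- cells (-0.086 to 1.18, adjusted p = 0.134), and neither was called.

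The *Lepr* difference between the Pdgfrα+ populations was, however, called in 6 of 18 alternatives: with voom (adjusted p = 0.00874) or edgeR (0.0437) on the reads, and in limma fits of those 2 populations alone (0.0211), without GFP- Pdgfrα- cells (0.0102, an alternative chosen after seeing the data) or without their replicate 1 (0.0145) or 2 (0.0173). Over all 18 the range was 0.00874 to 0.446. Between the Pdgfrα- populations the GFP difference was called without GFP- Pdgfrα- replicate 2, at 1.08 (limma adjusted p = 0.00129, range over 17 alternatives 0.00129 to 0.993). Without replicate 1 it was 0.0052, so its size depended on 1 library.

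The adhesion gene *Vcam1* (ENSMUSG00000027962, chromosome 3, 115812938 to 115832606, reverse strand, 10 exon blocks) had values of 123 and 97.0 in GFP+ Pdgfrα+, 29.4 and 25.1 in GFP- Pdgfrα+, 93.8 and 109 in GFP+ Pdgfrα- and 7.90 and 6.25 in GFP- Pdgfrα- libraries. Here the high pair were the GFP+ populations, whose libraries overlapped, followed by GFP- Pdgfrα+ and then GFP- Pdgfrα- cells. The difference between the GFP+ populations was 0.11 on the log2(value + 1) scale (95% confidence interval -0.34 to 0.56, limma adjusted p = 0.744), and its sign turned to -0.20 when values were rescaled without mitochondrial genes and to -0.059 without GFP+ Pdgfrα+ replicate 1. With GFP, *Vcam1* was higher by 1.97 among Pdgfrα+ cells (SE 0.20, limma adjusted p = 0.000213) and by 3.67 among Pdgfrα- cells (SE 0.20, adjusted p = 2.96e-08). GFP+ Pdgfrα- cells were 1.86 above GFP- Pdgfrα+ cells (adjusted p = 3.63e-05), and *Vcam1* was the 1 gene of the 6 called higher there. *Vcam1* was also the 1 gene of the 6 whose interaction was called, at -1.70 (SE 0.29, limma adjusted p = 0.000501), where 25.2% of all genes were called lower and 19.1% higher.

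The transcription factor gene *Foxc1* (ENSMUSG00000050295, chromosome 13, 31898515 to 31902504, forward strand, 1 exon block) had values of 48.2 and 36.7 in GFP+ Pdgfrα+, 16.8 and 27.5 in GFP- Pdgfrα+, 6.92 and 4.76 in GFP+ Pdgfrα- and 0.431 and 3.66 in GFP- Pdgfrα- libraries. The populations did not overlap, and their order was again that of *Cxcl12*. The lowest value stands for 1 read, below the floor, and the other GFP- Pdgfrα- library had 15 reads. With Pdgfrα, *Foxc1* was higher by 2.67 among GFP+ cells (SE 0.49, limma adjusted p = 0.00188) and by 3.12 among GFP- cells (SE 0.49, adjusted p = 0.000141). Over 17 alternatives the difference among GFP- cells ran from 2.27 to 3.97. The difference of 0.94 between the Pdgfrα+ populations was not called (95% confidence interval -0.13 to 2.00, limma adjusted p = 0.345).

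GFP+ Pdgfrα- cells fell by 1.74 below GFP- Pdgfrα+ cells in *Foxc1* (limma adjusted p = 0.0196). The call was absent with a pseudocount of 0.1 (difference -1.88, limma adjusted p = 0.0876). It was also absent without GFP- Pdgfrα+ replicate 2 (difference -1.40) or GFP+ Pdgfrα- replicate 1 (-1.97) or 2 (-1.51). Over 18 alternatives this difference ran from -2.08 to -1.40. The *Foxc1* difference of 1.39 between the Pdgfrα- populations (limma adjusted p = 0.0308) was not called in 8 of 17 alternatives, over which the adjusted p-value ran from 0.000862 to 0.293 and the difference from 0.54 to 2.24. Among them were the fits without GFP+ Pdgfrα- replicate 1 (0.179) or 2 (0.0696) and without GFP- Pdgfrα- replicate 1 (0.293), the library with 1 read. The difference was 0.54 without that library and 2.24 without replicate 2 of the same population.

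**Figure D2:**
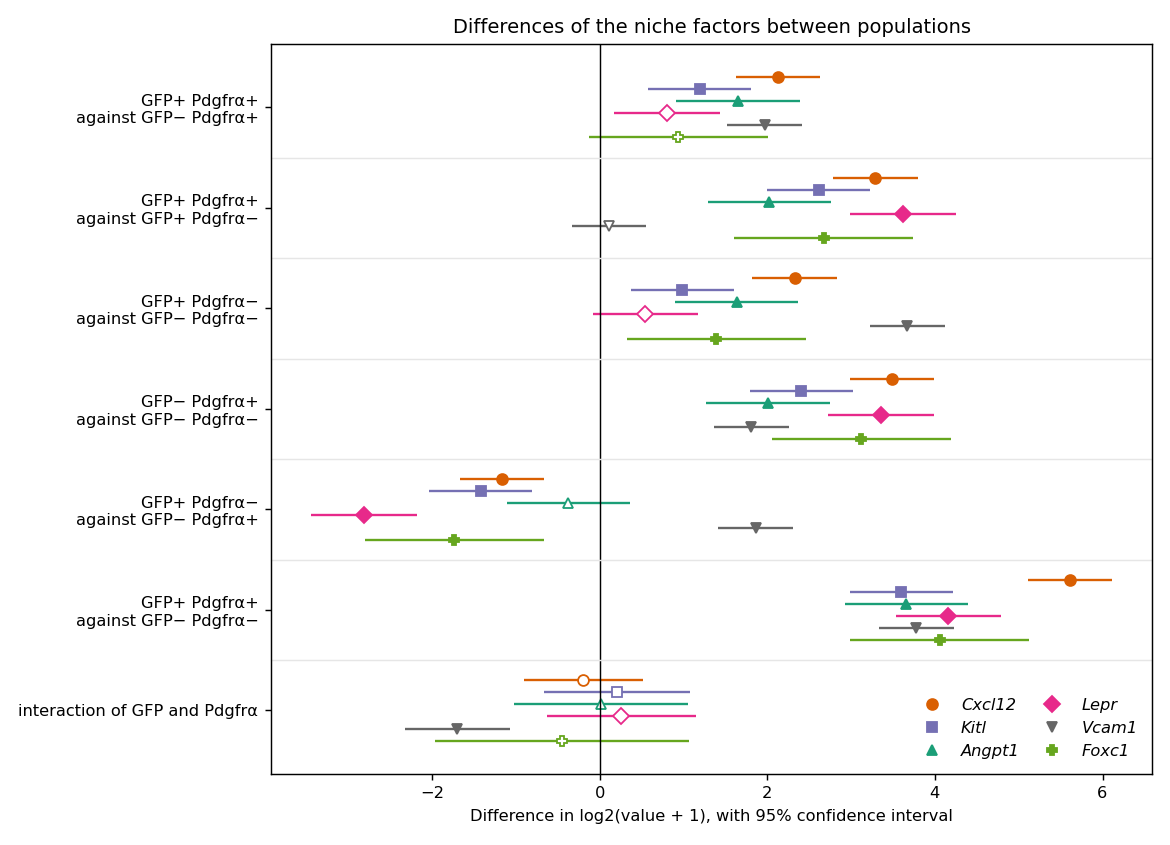
Differences of the 6 niche factors in log2(value + 1), with 95% confidence intervals, in 6 comparisons of populations and for the interaction. Filled markers are called (adjusted p-value up to 0.05) and open markers are not. In the interaction the *Vcam1* interval, -2.33 to -1.07, is the 1 of 6 that does not reach 0.

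Across genes, levels were compared as value per kilobase of exons. In GFP+ Pdgfrα+ cells *Cxcl12* was highest at 82.0 ± 6.72 per kilobase (SD, n = 2), above 97.9% of the 15849 genes with a length. *Lepr* (25.5 ± 4.25) and *Vcam1* (22.4 ± 3.74) followed and did not differ beyond their spread, and their order turned when the longest transcript was used as length. *Angpt1* (11.8 ± 5.05), *Foxc1* (10.6 ± 2.05) and *Kitl* (10.5 ± 1.35) lay together below them. In GFP- Pdgfrα+ cells *Cxcl12* (18.7 per kilobase) and *Lepr* (14.4) led, and in GFP+ Pdgfrα- cells *Vcam1* (20.6) stood above *Cxcl12* (8.29), with the other 4 between 1.46 and 2.59. In GFP- Pdgfrα- cells the 6 genes lay between 0.512 and 1.62 per kilobase.

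The partners of these factors, a list of 11 receptors and ligands of which 10 were in the table, were examined next. Between the Pdgfrα+ populations 0 of the 10 were called by limma in either direction, where few of all genes were (3.22% higher and 2.13% lower). *Cxcr4*, the receptor of Cxcl12, had values of 2.35 and 5.61 in GFP+ Pdgfrα+, 1.89 and 2.82 in GFP- Pdgfrα+, 56.0 and 52.4 in GFP+ Pdgfrα- and 24.6 and 28.2 in GFP- Pdgfrα- libraries. It was therefore low where *Cxcl12* was highest, and the GFP+ populations differed by -3.55 on the log2(value + 1) scale (limma adjusted p = 2.24e-05). *Kit*, the receptor of stem cell factor, had values of 3.18 and 4.17 in GFP+ Pdgfrα+, 2.14 and 3.71 in GFP- Pdgfrα+, 13.2 and 9.13 in GFP+ Pdgfrα- and 347 and 266 in GFP- Pdgfrα- libraries. *Itga9*, an integrin subunit whose dimer with Itgb1 can bind Vcam1, was highest in the Pdgfrα+ libraries (51.3 to 64.4), with 6.92 and 8.62 in GFP+ Pdgfrα- and 1.58 and 2.95 in GFP- Pdgfrα- libraries.

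The other partners named here were chosen after their values were seen. *Itga4*, which pairs with Itgb1 as the main Vcam1 receptor of blood cells, had values of 848 and 723 in GFP- Pdgfrα- libraries and 16.2 to 33.6 in the other 6. *Tek* had values of 23.3 and 17.1 in GFP+ Pdgfrα+, 27.1 and 27.8 in GFP- Pdgfrα+, 27.3 and 39.5 in GFP+ Pdgfrα- and 0.718 and 6.25 in GFP- Pdgfrα- libraries. *Ackr3*, a second receptor of Cxcl12, was highest in GFP- Pdgfrα+ cells (51.3 and 59.5), with 26.7 and 24.9 in GFP+ Pdgfrα+ cells. Of the 10 partners, GFP+ Pdgfrα+ cells had 1 called higher and 2 lower against GFP+ Pdgfrα- cells (13.1% and 11.1% of all genes), with 4 higher and 4 lower against GFP- Pdgfrα- cells (32.9% and 26.4% of all genes).

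**Figure D3:**
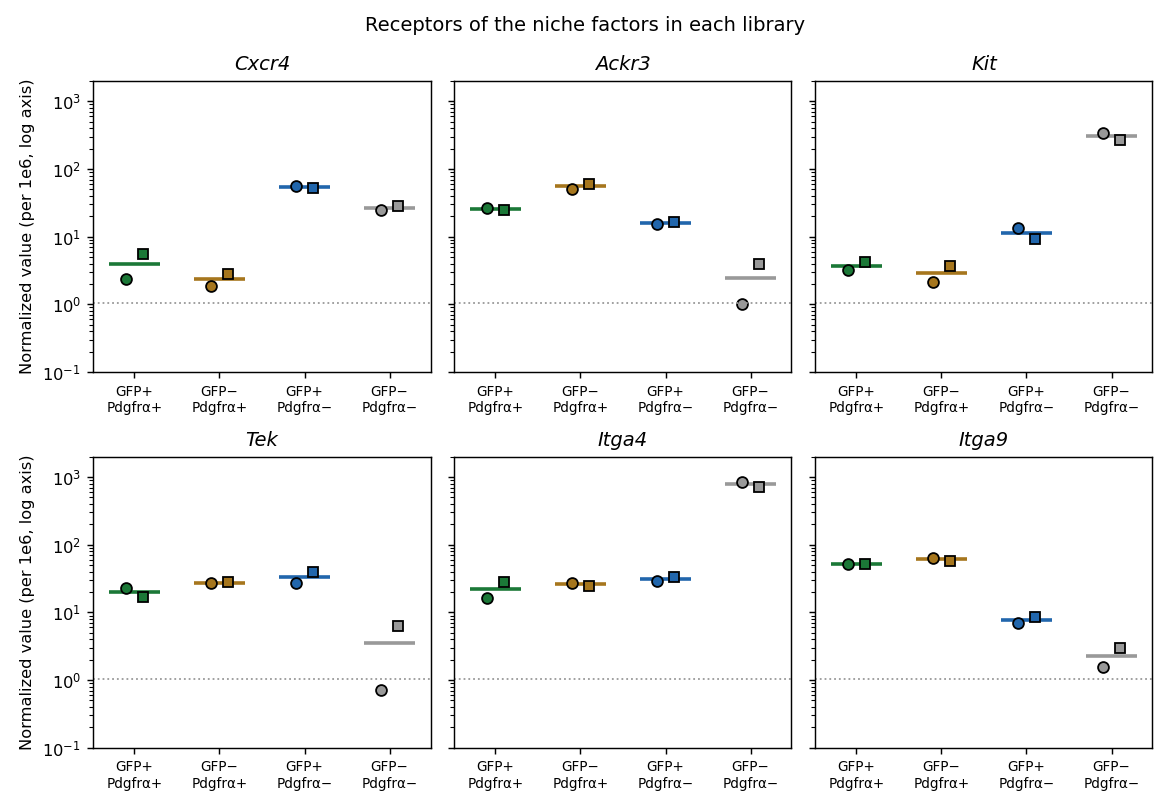
Normalized value (log axis, per 1e6) of 6 receptor genes of the niche factors in the 8 libraries, drawn as in the plot of the niche factors. *Kit* and *Itga4* were highest in the GFP- Pdgfrα- libraries (266 to 347 and 723 to 848), and *Cxcr4* was highest in GFP+ Pdgfrα- cells (56.0 and 52.4).

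The transcription factors that go with Foxc1 in reticular stroma, *Foxc2*, *Ebf1*, *Ebf2* and *Ebf3*, were listed together. Of these, limma called 0 of the 4 between the Pdgfrα+ populations, where 3.22% of all genes were higher and 2.13% lower. Among GFP+ cells 2 of the 4 were higher with Pdgfrα (13.1% of all genes), and 4 of the 4 were higher in each Pdgfrα+ population than in GFP- Pdgfrα- cells (32.9% of all genes in both). *Ebf1*, a factor of B cell and stromal differentiation, had values of 185 and 185 in GFP+ Pdgfrα+, 331 and 287 in GFP- Pdgfrα+, 57.2 and 70.6 in GFP+ Pdgfrα- and 6.75 and 10.5 in GFP- Pdgfrα- libraries. *Ebf2* had values of 152 and 234, 229 and 228, 19.1 and 17.6, and 7.61 and 3.18 in the same order. Both were high in the 2 Pdgfrα+ populations, as *Lepr* was, and neither was highest in GFP+ Pdgfrα+ cells by mean. Of the other 2 of the list, *Foxc2* did not share this pattern and *Ebf3* shared it in part. *Foxc2*, with 7.04 and 4.46, 2.14 and 4.31, 1.58 and 2.19, and 0.718 and 0.118 in the same order, was highest by mean in GFP+ Pdgfrα+ cells. *Ebf3* had 165 and 163, 209 and 202, 123 and 111, and 9.05 and 5.54. Its populations had the same order by mean as those of *Ebf1* and *Ebf2*, but it stayed high in GFP+ Pdgfrα- cells. Limma called neither *Foxc2* nor *Ebf3* between the GFP+ populations.

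In leptin receptor signalling, 2 of 7 listed genes were called higher and 0 lower by limma between the Pdgfrα+ populations (3.22% and 2.13% of all genes). *Jak2*, the kinase bound to the receptor, had values of 102 and 80.1 in GFP+ Pdgfrα+, 55.3 and 48.0 in GFP- Pdgfrα+, 44.1 and 40.5 in GFP+ Pdgfrα- and 165 and 131 in GFP- Pdgfrα- libraries. It was highest in GFP- Pdgfrα- cells, and between the Pdgfrα+ populations it differed by 0.80 on the log2(value + 1) scale (limma adjusted p = 0.0229). *Socs3*, the feedback inhibitor induced by Stat3, had values of 86.3 and 80.6, 36.2 and 26.0, 73.9 and 124, and 1.58 and 2.95 in the same order. It was highest by mean in GFP+ Pdgfrα- cells, where *Lepr* was low, and between the Pdgfrα+ populations it differed by 1.41 (limma adjusted p = 0.0146). *Leprot*, whose product lowers leptin receptor at the cell surface, had 55.9 and 47.9 in GFP+ against 58.6 and 57.2 in GFP- Pdgfrα+ libraries and was highest in GFP- Pdgfrα- cells (116 and 90.4). In the comparison of the GFP+ populations 2 of the 7 were higher with Pdgfrα, *Leprot* (1.12, limma adjusted p = 0.000819) and *Jak2* (1.08, adjusted p = 0.000990), and 1 was lower (13.1% and 11.1% of all genes). This was *Sh2b1*, an adaptor of Jak2, lower among GFP+ cells with Pdgfrα than without it (31.3 and 20.3 against 40.9 and 53.6, difference -0.87, limma adjusted p = 0.0384).

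Of 25 other secreted niche factors, 24 were in the table. Between the Pdgfrα+ populations 4 of the 24 were called higher in GFP+ cells and 3 lower by limma, and between the GFP+ populations 15 were higher with Pdgfrα and 1 lower (3.22% and 2.13%, then 13.1% and 11.1%, of all genes). *Spp1*, which encodes osteopontin, had values of 6048 and 3915 in GFP+ Pdgfrα+, 287 and 174 in GFP- Pdgfrα+, 494 and 393 in GFP+ Pdgfrα- and 85.4 and 77.5 in GFP- Pdgfrα- libraries. It was higher in GFP+ than GFP- Pdgfrα+ cells by 4.44 on the log2(value + 1) scale (limma adjusted p = 1.34e-06). The other 3 called higher there, named after their values were seen, were *Slit2* (117 and 168 against 38.4 and 56.3, difference 1.57, limma adjusted p = 0.00459), *Tgfb1* (54.5 and 29.2 against 10.97 and 10.5, 1.80, 0.00482) and *Dkk1* (8.98 and 6.47 against 1.13 and 0.446, 2.30, 0.00518). *Ptn* (pleiotrophin), *Gas6* (a ligand of TAM receptors) and *Angptl2* were called lower there, by values of -1.57 (adjusted p = 0.00390), -1.11 (0.00358) and -0.92 (0.00575). *Igf1*, with 1277 and 1524 in GFP+ Pdgfrα+ and 1826 and 1782 in GFP- Pdgfrα+ libraries, and *Angptl1*, with 197 and 289.6 against 369 and 429.6, were not called between them (adjusted p = 0.403 and 0.0832). By mean *Tgfb1* was highest in GFP- Pdgfrα- cells (46.1 and 50.3), while *Spp1*, *Slit2* and *Dkk1* were highest in GFP+ Pdgfrα+ cells.

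Among 12 genes of reticular and adipogenic stroma, 1 was called higher and 1 lower by limma between the Pdgfrα+ populations, and among GFP+ cells 6 were higher and 0 lower with Pdgfrα, at the same shares of all genes. *Hp* (haptoglobin) was higher in GFP+ Pdgfrα+ cells (13.7 and 10.2 against 2.90 and 1.04, adjusted p = 0.0172), and *Igfbp5*, a binding protein of insulin-like growth factors, was lower (2505 and 2328 against 4513 and 3549, adjusted p = 0.0278). *Lpl*, *Igfbp4*, *Fstl1* and *Agt* differed between the GFP+ populations, by 2.69, 1.92, 2.50 and 1.72 on the log2(value + 1) scale, and were not called between the Pdgfrα+ populations. *Adipoq*, *Pparg* and *Cebpa* of the same list were called in neither comparison. *Adipoq* had 2.62 and 3.88 in GFP+ Pdgfrα+, 1.39 and 2.82 in GFP- Pdgfrα+, 8.86 and 3.73 in GFP+ Pdgfrα- and 7.90 and 2.71 in GFP- Pdgfrα- libraries. In the same order the means of *Pparg* were 6.89, 7.05, 5.80 and 1.49, and those of *Cebpa* 4.90, 6.68, 4.88 and 0.772. The 6 niche factors summed to 1202 and 1025 in GFP+ Pdgfrα+ libraries and 359 and 332 in GFP- Pdgfrα+ libraries.

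Markers of other cells differed between the populations, and their part in the differences of the niche factors was not tested. In GFP+ Pdgfrα+ cells 8 of 9 osteoblast genes were higher than in GFP- Pdgfrα+ cells by limma (3.22% of all genes). The list summed to 55079.6 and 41028 in GFP+ Pdgfrα+, 17049.5 and 15520.2 in GFP- Pdgfrα+, 3422 and 2849 in GFP+ Pdgfrα- and 472 and 602 in GFP- Pdgfrα- libraries. *Col1a1*, which other stroma also makes, was its most abundant gene and made up most of each sum. Between the single-positive populations limma called 2 of the 9, *Runx2* and *Col1a1*, lower in GFP+ Pdgfrα- cells (14.3% of all genes). It called 4 higher there, *Bglap*, *Ibsp*, *Dmp1* and *Phex* (13.5% of all genes). Means in GFP+ Pdgfrα+, GFP- Pdgfrα+ and GFP+ Pdgfrα- cells were 2119.6, 49.9 and 143.2 for *Ibsp* and 179.4, 5.19 and 39.4 for *Dmp1*. Between the Pdgfrα+ populations the tendon and perichondrium list went the other way from the osteoblast list, with 5 of 5 lower in GFP+ cells (2.13% of all genes). It summed to 514 and 552, 2835 and 2738, 17.4 and 15.8, and 75.1 and 83.4 in the same order of populations, led by *Thbs4*, and *Scx* was at the floor in both GFP+ Pdgfrα+ libraries. The cartilage list, with *Col2a1* most abundant in 7 of 8 libraries, summed to 297 and 374, 609 and 1971, 67.6 and 97.6, and 513 and 929, with 3 of 7 lower in GFP+ than in GFP- Pdgfrα+ cells (again 2.13% of all genes).

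In GFP+ Pdgfrα- cells, where *Vcam1* was high, 3 further lists were high. Compared with GFP+ Pdgfrα+ cells, 7 of 8 pericyte and smooth muscle genes, 6 of 7 skeletal muscle genes and 7 of 9 Schwann cell precursor genes were higher there by limma, as were 11.1% of all genes. The pericyte and smooth muscle list summed to 481 and 394 in GFP+ Pdgfrα+, 368 and 382 in GFP- Pdgfrα+, 2029 and 2626 in GFP+ Pdgfrα- and 83.6 and 137 in GFP- Pdgfrα- libraries. Its most abundant gene was *Rgs5* in the Pdgfrα- libraries (731 and 1035 with GFP) and *Cspg4* in the Pdgfrα+ libraries (205 and 146 with GFP, 255 and 260 without it), and *Cspg4* was the 1 gene of the 8 not called between the GFP+ populations. The skeletal muscle list summed to 70.3 and 67.1, 35.4 and 33.4, 773 and 812, and 19.4 and 11.2, with *Pax7* most abundant in GFP+ Pdgfrα- libraries (296 and 336) and *Des* or *Acta1* in the other 6. Its *Myod1*, *Myf5*, *Pax7* and *Myog* were at the floor in both GFP- Pdgfrα+ libraries. The Schwann cell precursor list summed to 108 and 76.3, 21.6 and 42.0, 454 and 421, and 30.3 and 51.8. *Erbb3* was its most abundant gene in GFP+ Pdgfrα- libraries (131 and 131), with *Sox10*, *Foxd3* and *Cdh19* at the floor in both GFP- Pdgfrα+ libraries. The 2 of the 9 not called between the GFP+ populations were *S100b* and *Gfap*. *S100b* had 6.93 and 16.2 in GFP- Pdgfrα+ and 4.73 and 2.44 in GFP+ Pdgfrα- libraries. Limma called it lower in the second of these, where 7 of the 9 were called higher. *Gfap*, which the paper names as a mature Schwann cell gene, was at the floor in both GFP+ Pdgfrα- libraries. It was highest in GFP- Pdgfrα- libraries (5.89 and 10.97). Which of these cells held the *Vcam1* or *Cxcr4* transcripts was not tested.

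GFP- Pdgfrα- cells, in which the 6 niche factors were lowest by mean (for *Lepr* with libraries that overlapped those of GFP+ Pdgfrα- cells), carried erythroid genes although Ter119 had been used to remove erythroid cells. All 7 erythroid genes were higher there than in each of the other 3 populations by limma, as were 23.6% to 26.8% of all genes. They summed to 9396 and 15392 in GFP- Pdgfrα-, 32.5 and 37.8 in GFP+ Pdgfrα+, 41.5 and 35.8 in GFP- Pdgfrα+ and 112 and 63.4 in GFP+ Pdgfrα- libraries, led by *Hbb-b1* (4362 and 7619 in GFP- Pdgfrα- cells). White cell genes (6 of 7 in the table) summed to 74.1 and 76.2 in GFP- Pdgfrα- libraries and 4.42 to 19.2 in the other 6. *Laptm5* was their most abundant gene in GFP- Pdgfrα- libraries (32.3 and 39.5), and *Lyz2* (20.8 and 25.8 there) over all 8. Endothelial genes (7 of 8 in the table, with *Cdh5* most abundant in 6 of 8 libraries) summed to 38.1 and 130.1 in GFP- Pdgfrα- and 28.1 to 85.8 in the other libraries. The mitochondrial share of reads was 36.9% and 39.1% in GFP- Pdgfrα- libraries, 24.2% and 22.2% in GFP+ Pdgfrα- libraries and 13.0% to 14.5% in the 4 Pdgfrα+ libraries. The part of these differences in the low values of the niche factors was not tested.

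Genes with the most similar pattern to each factor over the 8 libraries were found by Pearson's r of log2(value + 1), among genes with a mean value of at least 5. As the libraries fall into 4 separate populations, r describes mainly the order and spacing of those populations. For *Cxcl12* the 3 most similar genes were *Wif1* (r = 0.996), *Sgms2* (0.995) and *Cpe* (0.995). *Wif1*, a secreted Wnt inhibitor, had values of 110.3 and 73.2 in GFP+ Pdgfrα+, 25.3 and 19.2 in GFP- Pdgfrα+, 10.1 and 11.2 in GFP+ Pdgfrα- and 1.01 and 1.53 in GFP- Pdgfrα- libraries. For *Kitl* they were *Kctd10* (0.991), *Gabra3* (0.991) and *Kcnt2* (0.990), for *Angpt1* *Fam195b* (0.987), *Mamdc2* (0.986) and *Entpd7* (0.986), and for *Lepr* *P4ha1* (0.994), *Arfgap3* (0.991) and *Hdlbp* (0.991). For *Foxc1* they were *Kdelr3* (0.990), *Pigx* (0.989) and *Sema3d* (0.980). *Vcam1* had *Fign* (0.994), *Cp* (0.993) and *Macf1* (0.989), and *Cp*, which encodes ceruloplasmin, had values of 173 and 149.6 in GFP+ Pdgfrα+, 39.0 and 39.6 in GFP- Pdgfrα+, 170.3 and 190.0 in GFP+ Pdgfrα- and 6.18 and 3.66 in GFP- Pdgfrα- libraries. Among the 6 factors, *Cxcl12* had r of 0.971 with *Angpt1*, 0.970 with *Kitl*, 0.951 with *Foxc1*, 0.921 with *Lepr* and 0.756 with *Vcam1*.

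RefSeq promoters were at hand for 4 of the 6 genes (*Cxcl12*, *Kitl*, *Lepr* and *Foxc1*), and these are shown because all 4 genes were highest by mean in GFP+ Pdgfrα+ cells, as *Angpt1* and *Vcam1*, which had no entry, also were. Each is the 250 bases before a start in GRCm38.p6, all on the forward strand, and 2 starts are listed for *Lepr*. Capitals mark every match, on either strand, to the GC box (GGGCGG), the TATA box (TATAAA), the CCAAT box (CCAAT) or a forkhead motif (GTAAACA). GC boxes that overlap run together.
*Cxcl12*, chr6:117168285-117168534: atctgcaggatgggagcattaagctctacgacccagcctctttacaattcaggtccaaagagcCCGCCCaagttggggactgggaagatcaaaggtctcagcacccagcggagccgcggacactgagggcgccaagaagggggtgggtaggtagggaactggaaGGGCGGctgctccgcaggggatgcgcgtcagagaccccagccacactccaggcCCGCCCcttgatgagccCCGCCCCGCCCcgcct
*Kitl*, chr10:100015571-100015820: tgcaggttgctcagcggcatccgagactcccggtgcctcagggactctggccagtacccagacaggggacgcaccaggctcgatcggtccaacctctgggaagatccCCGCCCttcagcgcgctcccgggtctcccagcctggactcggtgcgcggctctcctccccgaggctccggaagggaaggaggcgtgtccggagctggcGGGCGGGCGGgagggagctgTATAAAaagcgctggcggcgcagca
*Foxc1*, chr13:31806396-31806645: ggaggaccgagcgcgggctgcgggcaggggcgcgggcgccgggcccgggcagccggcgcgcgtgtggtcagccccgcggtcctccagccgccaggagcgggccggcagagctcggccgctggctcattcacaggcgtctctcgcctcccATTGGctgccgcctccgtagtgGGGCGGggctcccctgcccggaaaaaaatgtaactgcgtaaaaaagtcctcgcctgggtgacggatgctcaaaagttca
*Lepr*, first start, chr4:101717157-101717406: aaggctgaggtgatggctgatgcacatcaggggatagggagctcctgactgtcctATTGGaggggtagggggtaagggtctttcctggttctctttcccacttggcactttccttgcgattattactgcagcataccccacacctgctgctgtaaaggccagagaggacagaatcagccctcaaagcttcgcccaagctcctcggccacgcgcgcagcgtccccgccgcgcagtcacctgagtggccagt
*Lepr*, second start, chr4:101717656-101717905: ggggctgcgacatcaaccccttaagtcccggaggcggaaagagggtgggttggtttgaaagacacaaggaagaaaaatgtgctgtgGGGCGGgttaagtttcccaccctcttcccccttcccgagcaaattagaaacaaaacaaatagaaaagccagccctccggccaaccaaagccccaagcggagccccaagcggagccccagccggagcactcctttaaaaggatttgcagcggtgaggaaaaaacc
The *Cxcl12* window held 5 GC boxes, that of *Kitl* 3 and those of *Foxc1* and the second *Lepr* start 1 each, while 32.7% of 32851 promoters of this length held at least 1. A TATA box, in 12.4% of all promoters, stood 25 bases before the *Kitl* start, and a CCAAT box, in 33.8%, was found for *Foxc1* and the first *Lepr* start. The forkhead letters (3.17% of all promoters) were in 0 of the 5 windows, which says only that these letters are not there. A match describes the sequence and does not mark a site in use.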

How the data were processed

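Total RNA of sorted cells was amplified to cDNA and sequenced. Per the labels and methods, the authors trimmed adaptors with cutadapt, quantified reads on the NCBIM37 transcriptome with RSEM 1.17 and normalized them with limma. The deposited table holds this normalized signal on a linear scale, and 100% of the values gave whole reads (tolerance 0.05). Genes were named from the GENCODE annotation of the same build (15849 of 15880). On log2(value + 1), limma 3.58.1 was run under R 4.3.3 (linear model, then moderated variances with a trend), with 1 coefficient per population, 4 residual degrees of freedom, with Benjamini–Hochberg adjustment over 15880 genes. The fold changes understate those of low genes. When the fits were tested on a single simulated data set, a clearly larger share of the limma calls was false than the threshold allows. The shares for voom and edgeR were smaller than that of limma but also above the threshold. In that set every gene had the same dispersion, and genes were changed in GFP+ Pdgfrα+ cells only, unlike in the real data. The shares can therefore not be carried over to the calls given here. The limma calls are still to be taken as less certain than their adjusted p-values state, those near the threshold most. The interaction is the GFP difference in Pdgfrα+ minus that in Pdgfrα- cells. Tables and figures were made with pandas 2.3.3 and matplotlib 3.10.9.

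The members and gene lists were chosen with earlier results of these data known. The text names the 6 members, the most abundant marker of each other list and the 3 genes most like each member. Of each niche list it names the genes called between GFP+ Pdgfrα+ cells and either single-positive population (up to 6 by mean). Further genes, such as *Foxc2*, *Ebf3*, *Cspg4*, *Ibsp*, *Dmp1*, *S100b* and the markers at the floor, were chosen after their values were seen. All 6 members passed the filter on low values (over 2 in at least 2 libraries, 14333 genes).

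The design describes each set of samples as from pooled littermates, so replicate numbers were read as pairs. Deviations of same-numbered libraries were correlated at 0.00433 to 0.0812, and *Xist* was 2.90 to 11.3 in replicate 1 and 868 to 1380 in replicate 2 libraries. The 2 libraries of every population thus differed in *Xist*, and the spread within populations includes whatever else differed between these pools. That spread exceeded sampling of reads (chi-square/df 4.12 to 9.12). The alternatives were a fit of 2 populations, the replicate block, another pseudocount (0.1), the filter, 3 scalings, voom and edgeR 4.0.16 on the reads, and leaving out each library. edgeR called 5, 5, 4, 6, 5, 6 and 1 of the 6 members, and 893, 3586, 8415, 9281, 4182, 9240 and 6644 of all genes, in the 4 GFP and Pdgfrα comparisons, the 2 diagonal ones and the interaction.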

Additional observations from a re-analysis of the deposited data

Results flagged for a closer look

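*Vcam1* is listed because its GFP difference was not the same in Pdgfrα+ and Pdgfrα- cells. The difference in Pdgfrα+ cells minus that in Pdgfrα- cells was -1.70 on the log2(value + 1) scale (limma adjusted p = 0.000501). A called interaction was common in these data, as 25.2% of all genes were called lower and 19.1% higher. GFP+ cells were higher in both, by 1.97 and by 3.67. The interaction lay between -1.90 and -1.27 over 16 alternatives and was called in each of them (adjusted p = 0.000204 to 0.00611). Most of the pericyte, skeletal muscle and Schwann cell precursor genes listed above were also high in GFP+ Pdgfrα- cells, and their part in the interaction was not tested.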

How the results depend on the processing

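Of 726 values of the 6 genes under other settings, 676 kept direction and side of the threshold, 25 lost a call, 8 gained a call and 17 changed sign, all of the last uncalled in the reported fit. With the replicate block (paired fit) the 6 genes had 4, 5, 5, 6, 5, 6 and 1 calls, as without it. Between the Pdgfrα+ populations, leaving out a library gave 2 to 5 members called (2 without GFP+ Pdgfrα+ replicate 1 or either GFP- Pdgfrα+ library) and 246 to 1083 of all genes. Between the Pdgfrα- populations 3 members were called in the fit of 2 populations, after quantile normalization, after median centring, with voom and without GFP+ Pdgfrα- replicate 2 (3 to 6 over left-out libraries). In the interaction 2 were called without GFP- Pdgfrα- replicate 1, and 1 without any other library. Over left-out libraries all-gene calls ran from 2158 to 4056 between the GFP+ populations and from 2757 to 4642 between the single-positive ones. The sign of *Vcam1* between the GFP+ populations turned when scaled without mitochondrial genes (-0.20) and over left-out libraries (-0.059 to 0.28). Interactions that changed sign were *Cxcl12* (0.014 after quantile normalization, 0.23 after median centring, -0.60 to 0.21 over left-out libraries), *Kitl* (-0.11 to 0.53 over left-out libraries, to 0.83 after quantile normalization), *Angpt1* (-0.20 with pseudocount 0.1, -0.20 without mitochondrial genes, -0.18 with voom, -0.14 with edgeR, -0.43 to 0.46 over left-out libraries), *Lepr* (-0.28 to 0.80 over left-out libraries) and *Foxc1* (0.27 after quantile normalization, -1.30 to 0.40 over left-out libraries). Median centring moved the median of all genes against GFP- Pdgfrα- cells by -0.45 to -0.48 and the interaction by 0.43, quantile normalization moved them by -0.30 to -0.36 and 0.25, and scaling without mitochondrial genes moved the single-positive comparison by 0.25 and the GFP+ comparison by -0.27. The share of calls that were higher changed from 56.1%, 55.1% and 55.5% to 38.9%, 40.6% and 39.6% against GFP- Pdgfrα- cells and from 43.1% to 59.7% in the interaction with median centring, with quantile normalization from 56.1%, 55.1% and 55.5% to 46.7%, 45.5% and 44.2% against GFP- Pdgfrα- cells and from 54.1% to 48.6% between the GFP+ populations, from 48.6% to 68.3% and 54.1% to 30.8% in the single-positive and GFP+ comparisons without mitochondrial genes, and from 60.2% to 49.3% with voom and 76.1% without GFP- Pdgfrα+ replicate 1 between the Pdgfrα+ populations.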
